A study of Mus musculus with 64 samples.

Results

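Fatty acid oxidation enzymes were followed in 2 fat depots, brown adipose tissue (BAT) and the epididymal white depot (eWAT), as a set of 33 genes, chosen by symbol from the enzymes and carriers of mitochondrial and peroxisomal β-oxidation. All 33 were found among the 52636 genes of the count table and all 33 passed the filter on low counts, which 20249 genes passed. β-Oxidation shortens activated fatty acids stepwise and releases acetyl-CoA. Acyl-CoA synthetases activate the fatty acid, the carnitine system carries it into the mitochondrion, and an acyl-CoA dehydrogenase, an enoyl-CoA hydratase, a 3-hydroxyacyl-CoA dehydrogenase and a thiolase then act in turn, while the electrons leave through the electron transfer flavoprotein. Brown adipocytes burn fatty acids in this way for heat, whereas white adipocytes mainly store them.

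RNA was measured in male WT mice and in male fat-specific *Nampt* knockout (FANKO) mice, 2 to 4 months old and fed chow, at zeitgeber time (ZT) 6, 10, 18 and 22, where ZT counts hours from lights-on. Both genotypes came from the *Nampt* tm1Jtree line crossed with Adiponectin-Cre, in which exon 3 of *Nampt* is flanked by loxP sites. WT mice were littermates without Cre, and in FANKO mice the adiponectin promoter restricts the deletion to adipocytes, so other cells of each depot keep *Nampt*. Each combination of depot, genotype and ZT held 4 samples, thus 16 per depot and genotype and 64 in all. Nothing in the labels ties a BAT sample to an eWAT sample of the same animal.

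Total counts per sample ranged from 6117343 to 30544847. *Nampt*, which encodes the enzyme that salvages nicotinamide for NAD+ synthesis, was lower in FANKO BAT by a log2 fold change of -2.31 ± 0.07 and in FANKO eWAT by -0.50 ± 0.0673 (SE of the edgeR fit). In BAT, all 6 adipocyte markers were lower in FANKO than in WT mice, while 7 of 7 macrophage markers and 4 of 4 T cell markers were higher, and in eWAT 4 of 6 adipocyte markers were lower and 1 was higher. The summed level of 10 skeletal muscle markers exceeded 100 CPM, counts scaled to a common library total, in 9 libraries, 8 of them from BAT. RNA of a whole depot was measured, so fewer cells of a type and less RNA per cell cannot be told apart.

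The 33 genes together made up a median of 2.13% of all counts in WT BAT and 1.01% in FANKO BAT, and 0.580% in WT eWAT and 0.594% in FANKO eWAT. Transcripts of the mitochondrial genome, which encodes none of the 33, took a median of 24.6% and 14.7% of all counts in WT and FANKO BAT and 6.55% and 10.7% in WT and FANKO eWAT, and their part in these shares was not tested. On the CPM scale used from here on, which is adjusted by the trimmed mean of M values (TMM), their sum ran from 24956 to 32566 in the 16 WT BAT samples (median 28268) and from 6998 to 12168 in the 16 FANKO BAT samples (median 9256). The BAT ranges did not meet. In WT eWAT the sum ran from 3373 to 6160.0 CPM (median 4794) and in FANKO eWAT from 4898 to 7461 CPM (median 5849), so the eWAT ranges overlapped and FANKO BAT stood above WT eWAT in every sample.

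Per kilobase of exon, the order of the enzymes differed between the groups. Length here was the union of all annotated exons of a gene, 8730 bases for *Hadha* and 1516 for *Acaa2*. The order, the shares of roles and the shares of gene pairs therefore depend on the annotation as well as on the reads. In WT BAT, *Acaa2*, the mitochondrial thiolase, had the highest mean level at 1782 ± 129 CPM per kb (SD, n = 16), followed by the dehydrogenases *Acadl* (967 ± 72.6), *Acadvl* (689.7 ± 49.6) and *Acadm* (613 ± 75.1). The ranges of mean ± SD of *Acadvl* and *Acadm* overlapped. In FANKO BAT, *Acaa2* was still first at 317 ± 69.2 CPM per kb, but *Acsl5*, an acyl-CoA synthetase, was second at 245 ± 50.2, and *Acadvl* (193 ± 46.7) and *Acadl* (191 ± 45.0) followed within 1 SD of each other. In both eWAT groups *Acsl1*, the main acyl-CoA synthetase of fat, was first, at 142 ± 60.5 CPM per kb in WT and 148 ± 48.0 in FANKO mice, and next came 2 genes of peroxisomal oxidation, *Scp2* (97.6 ± 17.0 and 94.4 ± 13.8) and *Hsd17b4* (85.9 ± 14.3 and 97.1 ± 8.75), in either order. The 6 genes grouped as peroxisomal, with the peroxisomal *Decr2* counted among the auxiliary enzymes, held a median of 4.65% of its summed per-kb level in WT BAT and 9.09% in FANKO BAT, and 22.3% in WT and 19.3% in FANKO eWAT. The 4 acyl-CoA dehydrogenases held 29.6% and 23.8% in BAT and 18.4% and 19.0% in eWAT. These shares describe the set and were not tested.

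In FANKO BAT nearly the whole pathway was lower. Compared at mean level over the day, 30 of the 33 genes fell, where 33.9% of all genes tested fell, and 2 rose, where 33.1% of all genes tested rose (edgeR quasi-likelihood test, false discovery rate (FDR) below 0.01 over all genes). The genes that rose were *Cpt1a* and *Acsl5*, and the remaining gene, *Acaa1b*, had a log2 fold change of 0.04 ± 0.12. The median log2 fold change of the set was -1.65, beside 9.69e-05 over all genes. With libraries scaled by total counts alone in place of TMM, 11.2% of all genes fell and 63.1% rose, the median of all genes moved to 0.58 and that of the set to -1.08, and *Acsl4*, *Acox3* and *Scp2* changed sign, to 0.41, 0.38 and 0.041. Relative to the median of all genes the set stood at -1.65 under TMM and at -1.66 under total counts. A change of scaling moves every gene by nearly the same amount, so these 2 values had to be alike and check nothing. For 24 of the 33 genes the 16 FANKO samples and the 16 WT samples did not overlap, against 22.6% of all genes, and in each of the 24 the FANKO samples were the lower ones. The 6 adipocyte markers were lower in the same samples, with a median of -0.87. Among them *Cfd* stood at -2.23 and the others between -1.34 and -0.63. *Acadl*, *Acadm*, *Acaa2* and *Fabp3* had lower values than any of the 6. The summed macrophage markers spanned 70.8 to 133 CPM in WT BAT and 672 to 1608 CPM in FANKO BAT, and 4 of 7 brown adipocyte markers were lower. The part of these shifts in the fall of the set was not tested.

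**Figure D1:**
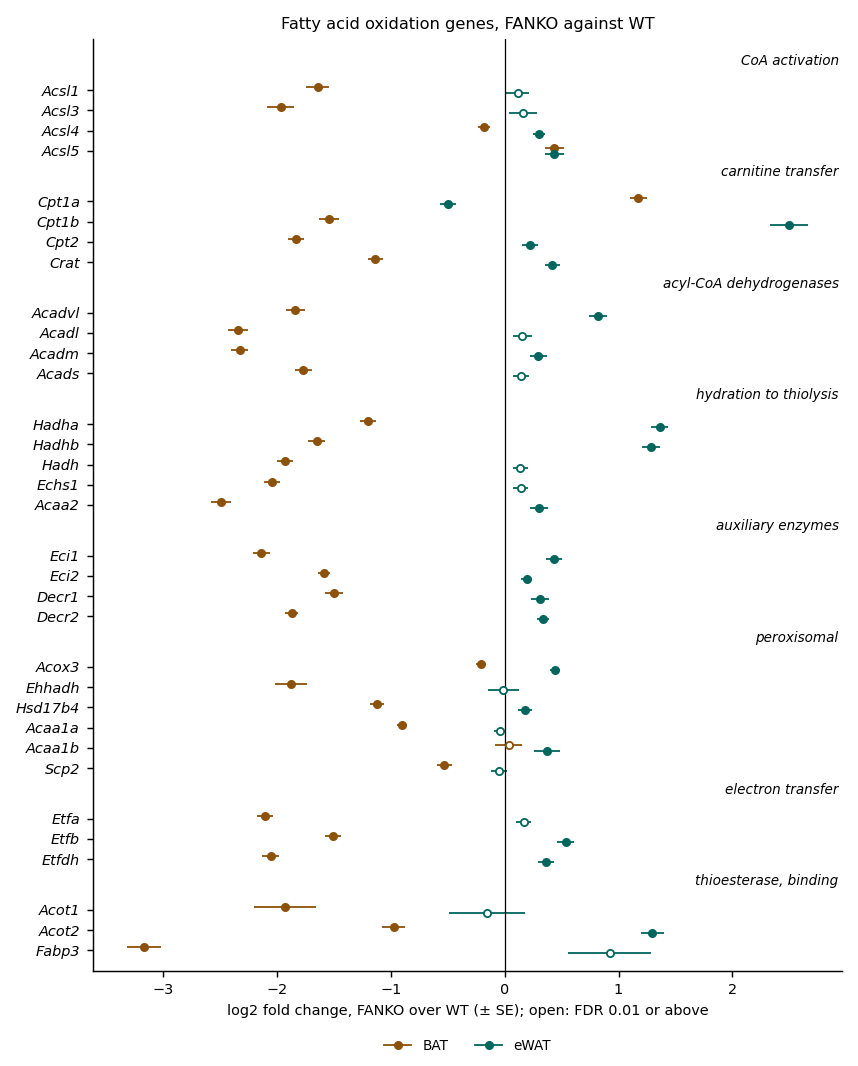
Log2 fold change of FANKO over WT mice at mean level, with its SE, for the 33 genes in BAT and in eWAT, grouped by role. Open symbols mark genes that did not pass an FDR of 0.01. In BAT 30 genes lie below 0 and pass, from *Fabp3* at -3.17 to *Acsl4* at -0.18 (*Acsl4*, *Acox3* and *Scp2* turn positive with libraries scaled by total counts alone), while in eWAT 20 genes lie above 0 and pass, from *Hsd17b4* at 0.18 to *Cpt1b* at 2.50 (*Cpt2*, *Eci2* and *Hsd17b4* turn negative under the same scaling).

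Fatty acids are activated by acyl-CoA synthetases, and 3 of the 4 long-chain synthetases fell in FANKO BAT. *Acsl3*, found on the endoplasmic reticulum and lipid droplets, ranged from 55.1 to 145 CPM (median 118) in WT BAT and from 18.8 to 39.3 CPM (median 26.5) in FANKO BAT. The highest FANKO sample was below the lowest WT sample, and the log2 fold change was -1.97 ± 0.12 (edgeR adjusted p = 2.00e-22). *Acsl1* fell by a log2 fold change of -1.64 ± 0.103 and *Acsl4*, which prefers arachidonic acid, by -0.18 ± 0.0533. *Acsl5* went the other way, from 517 to 1384 CPM (median 870.4) in WT to 753 to 1559.7 CPM (median 1202) in FANKO BAT, a log2 fold change of 0.44 ± 0.0829 (edgeR adjusted p = 4.69e-06), with overlapping samples.

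The carnitine step showed opposite changes of the 2 isoforms of carnitine palmitoyltransferase 1, the enzyme that forms acylcarnitines at the outer mitochondrial membrane. *Cpt1b*, the isoform of muscle and brown fat, ranged from 47.2 to 66.6 CPM (median 57.9) in WT BAT and from 13.5 to 25.1 CPM (median 20.5) in FANKO BAT, with no overlap and a log2 fold change of -1.54 ± 0.086 (edgeR adjusted p = 3.65e-24). *Cpt1a*, the isoform known from liver, ranged from 13.1 to 28.7 CPM (median 20.9) in WT and from 25.3 to 73.6 CPM (median 44.2) in FANKO BAT. Its log2 fold change was 1.17 ± 0.0745 (edgeR adjusted p = 1.38e-21), a 2.26-fold rise, although the lowest FANKO samples overlapped the highest WT samples. As a share of the summed per-kb level of both isoforms, *Cpt1b* took 83.1% to 90.9% in WT BAT (median 86.2%) and 32.7% to 67.1% in FANKO BAT (median 48.7%). *Cpt2*, the partner enzyme of the inner membrane, fell from 467 to 701 CPM (median 593) to 112 to 214 CPM (median 163) without overlap, a log2 fold change of -1.84 ± 0.0715, and *Crat*, which forms acetylcarnitine, fell by -1.14 ± 0.0685. *Cpt1b* and *Fabp3* are also genes of skeletal muscle, whose 10 markers summed to 1.37 to 556 CPM in WT BAT and 4.52 to 478 CPM in FANKO BAT, with 0 of 10 passing the test (FDR below 0.01) in either direction. Without the 9 libraries above 100 CPM the log2 fold changes in BAT were -1.51 for *Cpt1b* and -3.01 for *Fabp3*, an alternative chosen after seeing the data. Most of *Cpt1b*, 2744 of its 3372 exonic bases, is shared in the annotation used here with the read-through gene *Gm44502*. That gene was not found among the counted genes, and the bearing of the overlap on the level of *Cpt1b* was not tested.

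All 4 acyl-CoA dehydrogenases, which take the first step of each round for chains of different length, fell in FANKO BAT without overlap between the genotypes. *Acadl*, the long-chain enzyme, ranged from 1767 to 2268 CPM (median 1905) in WT BAT and from 251 to 544 CPM (median 362) in FANKO BAT. This was a 5.08-fold decrease, a log2 fold change of -2.34 ± 0.0854 (edgeR adjusted p = 5.72e-33). *Acadm*, for medium chains, was nearly as far down at -2.33 ± 0.0754, and *Acadvl*, for very long chains, and *Acads*, for short chains, changed by -1.84 ± 0.0816 and -1.77 ± 0.0759.

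The genes of hydration, second oxidation and thiolysis fell as well, 5 of 5 and without overlap. *Acaa2* ranged from 2369.7 to 3031 CPM (median 2750.1) in WT BAT and from 339.6 to 708 CPM (median 448) in FANKO BAT. The difference was 5.63-fold, a log2 fold change of -2.49 ± 0.0847 (edgeR adjusted p = 2.00e-34), the lowest value among the mitochondrial enzymes of the set. *Hadha* and *Hadhb* encode the α and β subunits of the trifunctional protein, which carries out the last 3 steps for long chains. *Hadha* ranged from 2528 to 3351 CPM (median 2762) in WT and 894 to 1611 CPM (median 1222) in FANKO BAT, and *Hadhb* from 1543 to 2215 CPM (median 1739.8) and 401 to 792 CPM (median 532). Both fell, with log2 fold changes of -1.20 ± 0.0733 and -1.65 ± 0.0776. *Hadha* took 51.1% to 55.6% of the per-kb level of the pair in WT BAT and 59.5% to 64.6% in FANKO BAT, given without a test. *Hadh* and *Echs1*, which act on shorter chains, changed by -1.93 ± 0.0682 and -2.05 ± 0.0702.

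**Figure D2:**
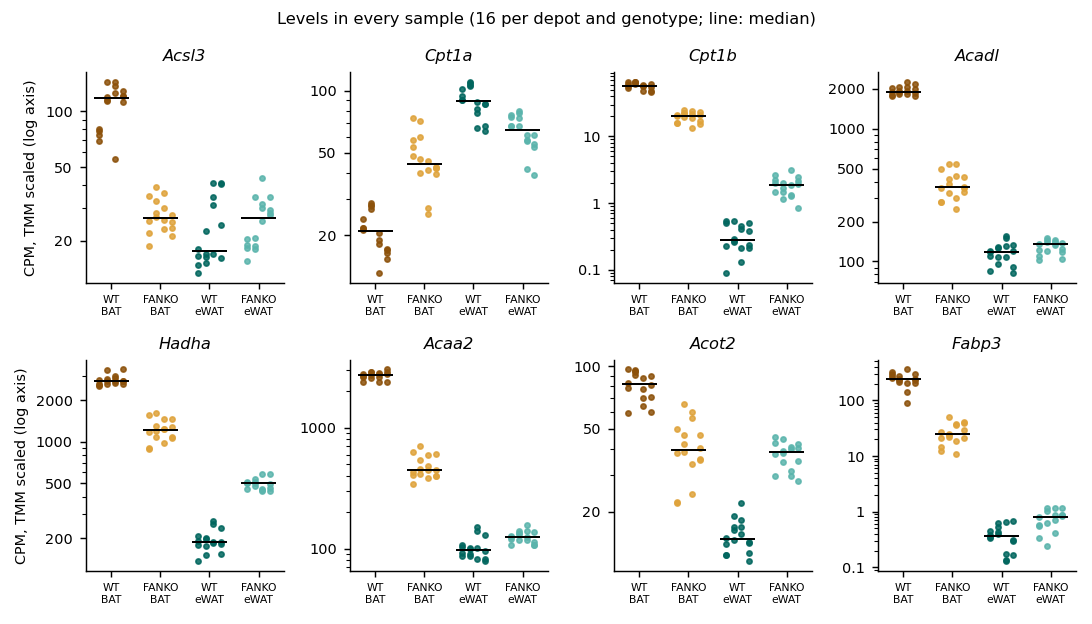
CPM on a log axis in each of the 64 samples for *Acsl3*, *Cpt1a*, *Cpt1b*, *Acadl*, *Hadha*, *Acaa2*, *Acot2* and *Fabp3*, by depot and genotype, with samples of a group ordered by ZT from left to right. *Acaa2* spans 2369.7 to 3031 CPM in WT BAT and 339.6 to 708 CPM in FANKO BAT, and *Cpt1a* shows the opposite order, at medians of 20.9 and 44.2 CPM.

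Auxiliary enzymes, which move or reduce double bonds of unsaturated chains, fell in 4 of 4 cases without overlap. *Eci1*, a mitochondrial enoyl-CoA isomerase, ranged from 497 to 654 CPM (median 571) in WT BAT and 86.9 to 168 CPM (median 134) in FANKO BAT, a log2 fold change of -2.14 ± 0.0733 (edgeR adjusted p = 2.98e-34). *Eci2*, *Decr1* and the peroxisomal reductase *Decr2* changed by -1.59 ± 0.05, -1.50 ± 0.08 and -1.87 ± 0.0572. The 3 electron transfer genes behaved alike. *Etfa*, the α subunit of the electron transfer flavoprotein, ranged from 558 to 968 CPM (median 711) in WT and 119 to 226 CPM (median 165) in FANKO BAT, with a log2 fold change of -2.11 ± 0.0723, while its partner *Etfb* changed by -1.51 ± 0.072 and *Etfdh*, which passes the electrons to ubiquinone, by -2.06 ± 0.0753.

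The 6 genes grouped as peroxisomal had a median log2 fold change of -0.72, which was -0.90 with *Decr2* among them, beside -2.08 over the 4 dehydrogenases, a difference that was not tested. *Ehhadh*, the L-bifunctional enzyme, ranged from 42.7 to 405 CPM (median 167) in WT BAT and 18.8 to 127 CPM (median 35.8) in FANKO BAT, with overlapping samples. Its log2 fold change was -1.88 ± 0.141 (edgeR adjusted p = 2.18e-18). *Hsd17b4*, the D-bifunctional enzyme, changed by -1.12 ± 0.0621, *Scp2* by -0.53 ± 0.0673 and *Acox3*, an acyl-CoA oxidase for branched chains, by -0.21 ± 0.0425. The 2 peroxisomal thiolase genes differed. *Acaa1a* ranged from 98.8 to 133 CPM (median 118) in WT and 51.7 to 75.5 CPM (median 65.2) in FANKO BAT and fell by -0.90 ± 0.0465 on the log2 scale with no overlap, whereas *Acaa1b* ranged from 19.9 to 53.1 CPM (median 34.2) and 20.3 to 49.7 CPM (median 36.2) and did not pass. Of the 38-base windows of *Acaa1b*, 36.1% also occur in *Acaa1a*, so part of their reads cannot be assigned to 1 of them with certainty.

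Among the thioesterases and the binding protein, *Fabp3*, the heart-type fatty acid-binding protein, had the lowest log2 fold change of the set, -3.17 ± 0.153 (edgeR adjusted p = 4.19e-27). It ranged from 89.8 to 359 CPM (median 244) in WT BAT and 11.1 to 49.7 CPM (median 24.6) in FANKO BAT, without overlap. *Acot2*, the mitochondrial acyl-CoA thioesterase, ranged from 59.7 to 96.4 CPM (median 82.0) and 22.1 to 65.8 CPM (median 39.6) and changed by -0.98 ± 0.0985. *Acot1*, its cytosolic paralog, ranged from 1.61 to 41.0 CPM (median 11.0) and 0.967 to 7.86 CPM (median 2.34) and changed by -1.93 ± 0.271. Samples of both thioesterases overlapped between genotypes, and 27.5% of the 38-base windows of *Acot2* also occur in *Acot1*. Such sharing was 32.1% for *Fabp3* with *Fabp3-ps1*, 32.0% for *Scp2* with *Scp2-ps2* and 19.0% for *Hadhb* with *Gm13910*, so part of their reads is uncertain too.

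Because most members moved together in BAT, the sequence before their start sites was examined in 28 members with a RefSeq promoter window on GRCm38.p6, which spans 250 bases before and 50 bases after the start. *Cpt1b*, *Crat*, *Acaa2*, *Decr1* and *Hsd17b4* were not matched. Motifs were searched on either strand, and a gene symbol counted when any of its windows held a match. AGGTCA, the core letters read by many nuclear receptors, occurred in 5 of 28 members (17.9%) and in 18.1% of all 27025 symbols. The tandem AGGTCANAGGTCA, in which PPARs bind, occurred in 0 of 28 members and in 0.0481% of all symbols. CACGTG, the E-box read by clock factors, occurred in 0 of 28 and 8.09%. GGGCGG, the GC box, occurred in 21 of 28 members (75.0%) and in 38.2% of all symbols. These matches are letters in a window and were not compared by a test. AGGTCA is contained in the tandem motif, and no other motif searched contains another. Shown are *Acadm*, which holds an AGGTCA match (chr3:153944644-153944893, minus strand), *Ehhadh*, the member with the smallest p for a daily rhythm in BAT (chr16:21787835-21788084, minus strand), and the 85 bases between *Hadha* and *Hadhb*, which are transcribed away from each other (chr5:30155163-30155247, plus strand). Capitals mark AGGTCA on either strand in *Acadm* and GGGCGG on either strand in the others.
Acadm: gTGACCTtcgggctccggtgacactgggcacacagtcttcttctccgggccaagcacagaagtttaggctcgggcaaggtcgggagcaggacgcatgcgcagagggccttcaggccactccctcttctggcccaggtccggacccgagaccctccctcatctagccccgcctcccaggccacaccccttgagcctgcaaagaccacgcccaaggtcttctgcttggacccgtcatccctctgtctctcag
Ehhadh: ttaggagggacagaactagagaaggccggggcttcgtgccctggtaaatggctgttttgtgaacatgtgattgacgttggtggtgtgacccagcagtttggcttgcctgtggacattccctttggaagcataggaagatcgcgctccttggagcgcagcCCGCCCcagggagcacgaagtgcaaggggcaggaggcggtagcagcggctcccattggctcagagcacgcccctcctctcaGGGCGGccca
Hadha to Hadhb: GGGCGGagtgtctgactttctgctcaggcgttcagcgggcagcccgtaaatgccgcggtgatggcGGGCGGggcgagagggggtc

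In eWAT the set moved the other way, and by less. There, 20 of the 33 genes rose in FANKO mice, where 27.6% of all genes tested rose, 1 fell, where 22.8% of all genes tested fell, and 12 did not pass. The median log2 fold change was 0.30, beside -0.02 over all genes. Scaled by total counts alone, 7 genes rose and 3 fell, 42.4% of all genes fell and 11.8% rose, the median of all genes was -0.27 and that of the set 0.057, and of the genes that rose under TMM *Cpt2*, *Eci2* and *Hsd17b4* turned to -0.019, -0.049 and -0.059. Without the samples of replicate 2, 13 genes rose under TMM. For 5 of the 33 genes, *Cpt1b*, *Acadvl*, *Hadha*, *Hadhb* and *Acot2*, the samples of the 2 genotypes did not overlap, against 5.90% of all genes, and the FANKO samples were the higher ones. These 5 genes, *Acox3* and *Etfb* rose under all 15 alternatives of the fit. In the same samples 3 of 7 brown adipocyte markers were higher and 1 was lower, with a summed level of 13.5 to 39.0 CPM in WT and 52.9 to 113 CPM in FANKO eWAT, 3 of 3 white adipocyte markers were lower, and 4 of 7 macrophage and 3 of 4 T cell markers were higher. Their part in the rise of the set was not tested.

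*Cpt1b*, *Hadha*, *Acot2* and *Hadhb*, in this order, had the highest log2 fold changes in eWAT. *Cpt1b* ranged from 0.0894 to 0.538 CPM (median 0.284) in WT eWAT and from 0.84 to 3.14 CPM (median 1.88) in FANKO eWAT, with a log2 fold change of 2.50 ± 0.167 (edgeR adjusted p = 1.27e-19). These levels rest on few reads, 1 to 13 counts per WT sample and 7 to 54 per FANKO sample. The summed skeletal muscle markers ran from 12.0 to 87.5 CPM in WT (median 20.8) and from 28.2 to 117 CPM in FANKO eWAT (median 55.0). Of the 10 markers 1 was higher in FANKO eWAT. Without the 9 libraries above 100 CPM the *Cpt1b* value was 2.46. The only eWAT library among them was replicate 1 of FANKO mice at ZT 6, so this alternative hardly changed the eWAT groups. The part of muscle RNA in the rise was not tested. *Cpt1a* was again opposite, from 64.1 to 111 CPM (median 89.3) in WT to 39.0 to 79.6 CPM (median 64.4) in FANKO eWAT, a log2 fold change of -0.50 ± 0.07 (edgeR adjusted p = 1.24e-08). Even so, *Cpt1b* held only 3.37% to 14.5% of the per-kb level of the pair in FANKO eWAT, after 0.199% to 1.32% in WT eWAT.

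*Hadha* ranged from 137 to 265 CPM (median 187) in WT eWAT and 441 to 589 CPM (median 499) in FANKO eWAT, a 2.57-fold rise (log2 1.36 ± 0.0738, edgeR adjusted p = 1.93e-23). *Hadhb* ranged from 64.6 to 132 CPM (median 92.6) and 202 to 286 CPM (median 229) and rose by a log2 fold change of 1.28 ± 0.0774. The 2 subunits kept a similar share, with *Hadha* at a median of 60.3% of the pair in WT and 61.3% in FANKO eWAT. The other genes of the same steps moved little, with *Acaa2* at 0.30 ± 0.081, *Echs1* at 0.14 ± 0.0678 and *Hadh* at 0.14 ± 0.0661, of which only *Acaa2* passed.

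*Acot2* ranged from 11.6 to 22.03 CPM (median 14.8) in WT and 28.1 to 45.8 CPM (median 38.7) in FANKO eWAT, a log2 fold change of 1.30 ± 0.102 (edgeR adjusted p = 1.03e-16), while *Acot1*, at 3 to 117 counts per WT sample, did not pass. *Acadvl* ranged from 71.6 to 119 CPM (median 88.2) and 141 to 195 CPM (median 157) and rose by 0.82 ± 0.0803, whereas *Acadl* and *Acads* did not pass at 0.15 ± 0.0821 and 0.14 ± 0.0743. *Acsl5* rose in this depot too, from 51.6 to 68.7 CPM (median 57.8) to 65.7 to 97.5 CPM (median 78.4), by 0.43 ± 0.0844. It is the only member that rose in both depots, counting genes past an FDR of 0.01, whereas with total counts alone *Acsl5* did not pass in eWAT and *Acox3* rose in both.

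*Etfb* rose from 27.0 to 48.4 CPM (median 34.3) in WT to 40.0 to 62.9 CPM (median 49.0) in FANKO eWAT, by 0.53 ± 0.0725, while its partner *Etfa* did not pass at 0.17 ± 0.0699. The overlapping gene *Gm45233*, on the same strand, shares 617 of the 1164 exonic bases of *Etfb*, so this level depends on how shared reads were counted. *Eci1* rose from 59.4 to 108 CPM (median 73.5) to 77.8 to 121 CPM (median 105), by 0.43 ± 0.0711, and *Acox3* from 41.9 to 62.7 CPM (median 48.7) to 60.2 to 74.5 CPM (median 68.1), by 0.44 ± 0.0426. The samples of *Etfb*, *Eci1* and *Acox3* overlapped between genotypes. Of the 2 thiolases, *Acaa1b* rose, from 26.1 to 75.3 CPM (median 31.4) to 27.8 to 62.6 CPM (median 42.6), by 0.37 ± 0.118, and *Acaa1a*, from 65.3 to 95.7 CPM (median 76.7) to 62.0 to 85.3 CPM (median 75.8), did not pass at -0.05 ± 0.0461. *Fabp3*, at 3 to 19 counts per WT sample and 4 to 21 per FANKO sample, had a log2 fold change of 0.92 ± 0.366 and did not pass (edgeR adjusted p = 0.026). The remaining genes that rose, *Crat*, *Etfdh*, *Decr2*, *Decr1*, *Acsl4*, *Acadm*, *Cpt2*, *Eci2* and *Hsd17b4*, had log2 fold changes between 0.18 and 0.42.

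The genotype effect differed between the depots for 31 of the 33 genes, where it differed for 64.3% of all genes tested (interaction term of the edgeR fit, FDR below 0.01). It was lower in BAT than in eWAT for 30 genes, where 32.1% of all genes tested were lower, and higher for 1 gene, *Cpt1a*, where 32.2% of all genes tested were higher. The median difference over the set was -2.06. *Fabp3* had the lowest difference, -4.09 ± 0.404, and *Cpt1b* followed at -4.05 ± 0.185, while *Cpt1a* had 1.67 ± 0.102. For *Acsl5* and *Acaa1b* no difference passed, at 0.00 ± 0.123 and -0.34 ± 0.169. Scaled by total counts alone, 25 genes passed as lower and 5 as higher, namely *Cpt1a* with *Acsl4*, *Acsl5*, *Scp2* and *Acaa1b* at 0.35, 0.83, 0.33 and 0.51, and *Acox3* turned positive at 0.18.

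Compared between depots, WT BAT held more of the pathway than WT eWAT. There, 31 of the 33 genes were higher in BAT, where 32.7% of all genes tested were higher, and 1, *Cpt1a*, was lower, where 41.1% of all genes tested were lower, with a median log2 difference of 2.50 beside -0.11 over all genes. *Fabp3* differed most, with 89.8 to 359 CPM (median 244) in BAT and 0.13 to 0.68 CPM (median 0.37) in eWAT, a log2 difference of 9.27 ± 0.233 that rests on 3 to 19 counts per WT eWAT sample. *Cpt1b* followed at 7.43 ± 0.133, then *Acaa2* at 4.73 ± 0.0938 and *Acadvl* at 4.36 ± 0.0909. *Cpt1a* was at -2.10 ± 0.0751, so the 2 isoforms had opposite depot differences. With libraries scaled by total counts alone, *Acsl4*, *Acox3*, *Hsd17b4*, *Acaa1a* and *Scp2* turned to values from -0.42 to -0.051.

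In FANKO mice the depots stood closer. There, 19 genes were higher in BAT than in eWAT, where 28.1% of all genes tested were higher, and 9 were lower, where 31.6% of all genes tested were lower, and the median log2 difference was 0.43 beside -0.01 over all genes. *Fabp3* kept a log2 difference of 5.18 ± 0.218, *Acsl5* of 3.92 ± 0.0934 and *Cpt1b* of 3.38 ± 0.106. The 9 lower genes were *Acsl1*, *Acsl4*, *Cpt1a*, *Eci2*, *Decr2*, *Ehhadh*, *Hsd17b4*, *Acaa1a* and *Acaa1b*, between -0.68 and -0.15. Without the 9 libraries rich in muscle markers, 5 genes were lower. The FANKO and WT depot comparisons and the 2 genotype comparisons share samples, so they do not count as independent of each other.

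**Figure D3:**
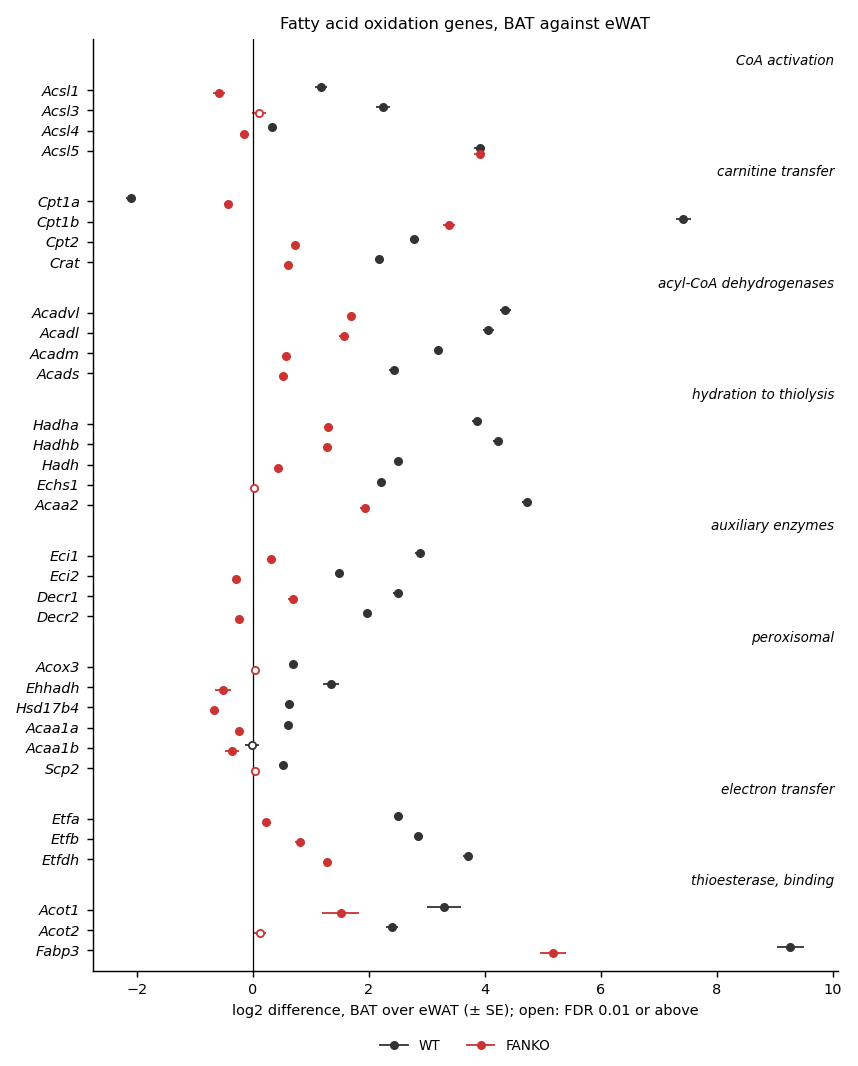
Log2 difference of BAT over eWAT at mean level, with its SE, for the 33 genes in WT and in FANKO mice, grouped by role. In WT mice the values run from *Cpt1a* at -2.10 to *Fabp3* at 9.27, and in FANKO mice from *Hsd17b4* at -0.68 to *Fabp3* at 5.18. With libraries scaled by total counts alone, *Acsl4*, *Acox3*, *Hsd17b4*, *Acaa1a* and *Scp2* turn negative in WT mice.

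The daily course of each gene was tested with a cosine and a sine term of 24 h. In WT BAT 6 of the 33 genes were rhythmic, where 13.9% of all genes tested were, and in FANKO BAT 3 were, where 2.84% were (FDR below 0.01). A direct test of the difference between the 2 rhythms called 0 genes of the set, where it called 2.76% of all genes, with 5 at an unadjusted p below 0.05. DESeq2 also called 0, whereas limma-voom and a fit of each depot alone called 1, *Acot1*. The 6 rhythmic genes of WT BAT were *Ehhadh*, *Acot1*, *Acsl1*, *Cpt1a*, *Acsl5* and *Acaa1b*, and those of FANKO BAT were *Ehhadh*, *Cpt1a* and *Acsl1*. Under all 15 alternatives of the fit, *Ehhadh*, *Acot1*, *Acsl1* and *Cpt1a* passed in WT BAT, and only *Ehhadh* and *Cpt1a* in FANKO BAT. The call of *Acsl1* in FANKO BAT was lost whichever replicate number was left out. No acyl-CoA dehydrogenase, trifunctional protein subunit or electron transfer gene was rhythmic in either BAT group by this test, nor were they in eWAT. Beside a rhythmic gene of 1 genotype that did not pass in the other, only the direct test bears on whether the genotypes differ.

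*Ehhadh* had the smallest p in BAT in both genotypes (edgeR adjusted p = 1.49e-11 in WT and 4.37e-07 in FANKO mice). In WT BAT its 4 samples were 205, 373, 290.4 and 274 CPM at ZT 6 and 323, 309, 396 and 405 at ZT 10, against 89.7, 63.3, 81.9 and 95.9 at ZT 18 and 42.7, 48.7, 76.4 and 129 at ZT 22. Every daytime sample was above every night sample. In FANKO BAT they were 21.8, 43.6, 85.9 and 38.2 CPM at ZT 6, 127, 104, 79.1 and 77.4 at ZT 10, 33.4, 33.5, 44.0 and 18.8 at ZT 18 and 22.7, 22.9, 23.1 and 23.5 at ZT 22, so the peak stayed at ZT 10 at a lower level. The log2 difference between the highest and lowest time-point means was 2.40 ± 0.37 in WT and 2.03 ± 0.17 in FANKO BAT (± SE), and the direct test gave an adjusted p of 0.107 (edgeR).

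*Acot1* swung most in WT BAT. Its samples were 13.9, 19.3, 10.1 and 17.6 CPM at ZT 6, 41.0, 34.9, 38.7 and 33.7 at ZT 10, 11.8, 6.35, 4.56 and 7.25 at ZT 18 and 2.08, 1.61, 1.67 and 4.84 at ZT 22 (edgeR adjusted p = 2.04e-07). Every sample at ZT 10 was above every sample at the other times. In FANKO BAT the values stayed between 0.967 and 7.86 CPM over the day. The log2 range of time-point means was 3.94 ± 0.36 in WT and 1.30 ± 0.47 in FANKO BAT, where the range of the fitted cosine was 3.87 and 2.44, and the direct test missed the threshold at an edgeR adjusted p of 0.0172.

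*Acsl1* in WT BAT gave 3305, 4429, 3449 and 4242 CPM at ZT 6, 4959.8, 5011, 4450.2 and 5031 at ZT 10, 2553, 2412, 2144 and 2678 at ZT 18 and 2057, 2036, 2039 and 2576 at ZT 22 (edgeR adjusted p = 2.48e-06). The samples at ZT 6 and ZT 10 were all above those at ZT 18 and ZT 22. In FANKO BAT it gave 677, 845, 1309.6 and 903 CPM, 1676, 1119, 1293 and 1627, 786, 1192, 1359 and 730.2 and 739, 732, 743 and 878 at the same times (edgeR adjusted p = 0.00639), with time points overlapping. *Cpt1a* in FANKO BAT gave 57.5, 53.6, 48.6 and 73.6 CPM at ZT 6, 40.2, 71.6, 46.8 and 59.6 at ZT 10, 25.3, 41.4, 27.1 and 45.8 at ZT 18 and 39.5, 42.4, 42.1 and 42.7 at ZT 22 (edgeR adjusted p = 2.87e-04). Its log2 range was 0.76 ± 0.04 in WT and 0.77 ± 0.25 in FANKO BAT, at the higher mean level of the FANKO mice. The mean was highest at ZT 10 and lowest at ZT 22 in WT BAT, against ZT 6 and ZT 18 in FANKO BAT. The direct test of the difference did not pass (edgeR adjusted p = 0.196).

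**Figure D4:**
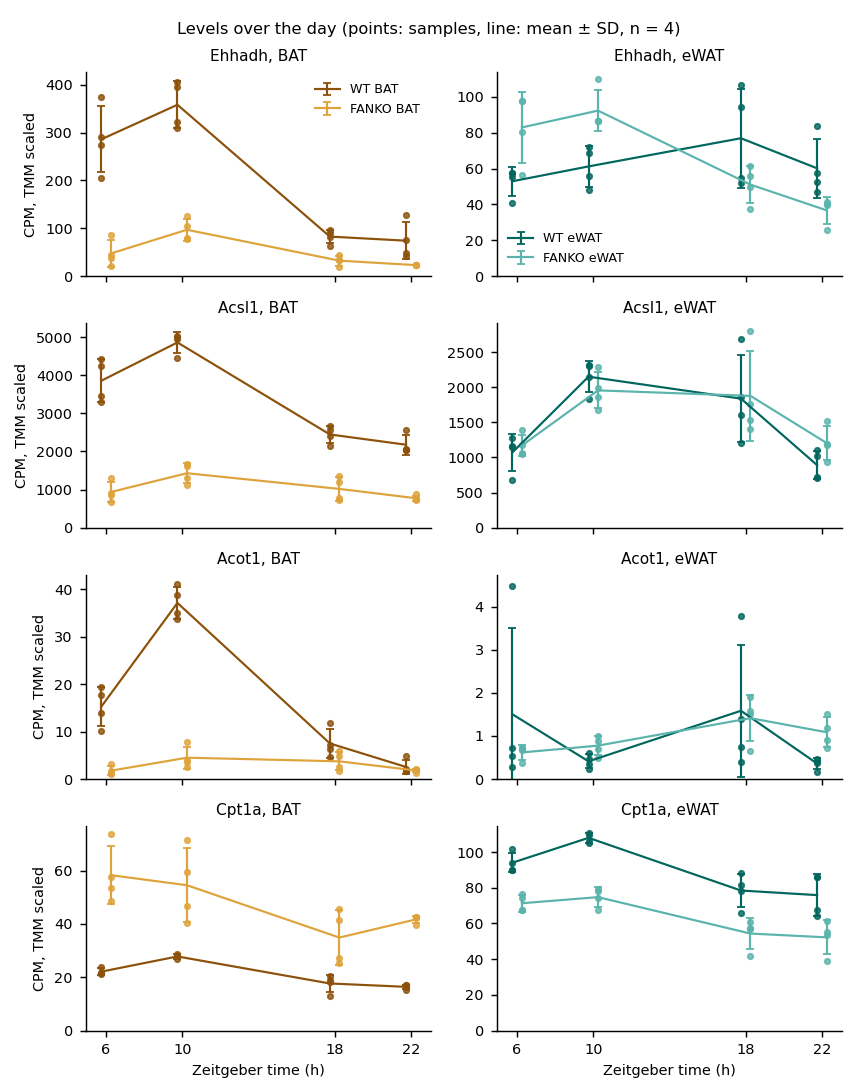
CPM of *Ehhadh*, *Acsl1*, *Acot1* and *Cpt1a* at ZT 6, 10, 18 and 22 in both depots and genotypes, with each sample as a point and the mean ± SD of 4 samples. *Ehhadh* in WT BAT is high at ZT 6 and ZT 10 and low at ZT 18 and ZT 22. In eWAT the FANKO values are high by day, whereas the WT mean is highest at ZT 18 and the WT rhythm did not pass.

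In WT eWAT 5 genes were rhythmic, *Acsl1*, *Acsl3*, *Cpt2*, *Cpt1a* and *Eci1*, where 9.38% of all genes tested were, and in FANKO eWAT 4 were, *Ehhadh*, *Acsl1*, *Cpt1a* and *Acsl4*, where 6.77% of all genes tested were. These calls depended on single replicate numbers: in WT eWAT they came to 1, 3, 1 and 3 without replicate 1, 2, 3 and 4, and in FANKO eWAT to 1, 0, 2 and 4. In WT eWAT only *Acsl1* passed under all 15 alternatives. *Acsl1* gave 1156, 684, 1165 and 1281 CPM at ZT 6, 2307, 1839.7, 2318 and 2146 at ZT 10, 1863, 1209, 1604 and 2683 at ZT 18 and 1023, 705, 1104 and 729 at ZT 22 in WT eWAT (edgeR adjusted p = 7.61e-07). Every sample at ZT 10 was above every sample at ZT 6 and ZT 22. In FANKO eWAT *Acsl1* gave 1180.2, 1386, 1057 and 1061, 2291, 1993, 1675 and 1869.6, 1538, 2806, 1769.7 and 1401 and 938, 1192, 1519.6 and 1175 CPM (edgeR adjusted p = 0.00139), again with ZT 10 above ZT 6 and ZT 22.

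*Acsl3* and *Cpt2* had their highest means at ZT 18 in WT eWAT. *Acsl3* gave 18.1, 16.6, 13.4 and 14.9 CPM at ZT 6, 16.3, 22.5, 17.0 and 15.3 at ZT 10, 34.6, 31.1, 41.1 and 17.0 at ZT 18 and 40.7, 24.3, 41.2 and 16.1 at ZT 22 (edgeR adjusted p = 5.23e-04), with 1 low sample at each night time point. *Cpt2* gave 77.6, 59.1, 78.9 and 73.9, 76.4, 73.5, 88.3 and 86.3, 122, 82.7, 134 and 93.4 and 86.4, 71.6, 104 and 71.5 CPM (edgeR adjusted p = 0.00584), with overlapping time points. *Cpt1a* in FANKO eWAT gave 74.4, 67.4, 76.3 and 67.3, 67.4, 74.1, 78.0 and 79.6, 41.9, 61.0, 57.5 and 57.0 and 39.0, 53.5, 61.4 and 55.1 CPM (edgeR adjusted p = 0.00299), with every daytime sample above every night sample.

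*Ehhadh* was the 1 gene of the set whose rhythm differed between genotypes in eWAT (edgeR adjusted p = 0.00948), where 1.15% of all genes tested differed. In WT eWAT it gave 57.6, 40.9, 57.6 and 55.5 CPM at ZT 6, 55.8, 48.1, 68.8 and 72.3 at ZT 10, 94.6, 54.5, 107 and 52.2 at ZT 18 and 57.4, 46.9, 83.7 and 52.6 at ZT 22. The WT course did not pass as a rhythm (edgeR adjusted p = 0.332). In FANKO eWAT it gave 97.6, 80.4, 56.3 and 97.7, 86.4, 109.8, 86.9 and 86.5, 55.6, 37.6, 61.3 and 49.8 and 40.1, 25.7, 41.5 and 39.6 CPM (edgeR adjusted p of the rhythm = 3.67e-04). The FANKO mean was highest at ZT 10 and lowest at ZT 22, while the WT samples had their highest mean, and their widest spread, at ZT 18. The call was lost without replicate 1, 2 or 3, at edgeR adjusted p of 0.0553, 0.171 and 0.0905.

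Most genes around the set also fell in BAT. Of 46 other genes, mostly of fatty acid uptake, oxidation, ketone and propionate metabolism, 45 were tested. Of these, 39 fell and 3 rose in FANKO BAT, beside 33.9% and 33.1% of all genes tested. The list also holds *Acaca*, *Acacb*, *Pdk4*, *Acad8*, *Acadsb* and *Hibch*, which belong to neighboring pathways. *Fabp4* in this list and *Pparg* among the regulators below were also counted as adipocyte markers. *Acsm3*, a medium-chain acyl-CoA synthetase, changed by -2.75 ± 0.202, *Acss1*, the mitochondrial acetyl-CoA synthetase, by -2.70 ± 0.0803 and *Bdh1*, 3-hydroxybutyrate dehydrogenase, by 2.62 ± 0.322. The other 2 genes that rose were *Fabp5*, the epidermal fatty acid-binding protein, at 2.36 ± 0.129, and *Cpt1c*, the brain isoform of carnitine palmitoyltransferase 1, at 0.99 ± 0.128. In eWAT 20 rose and 9 fell, beside 27.6% and 22.8% of all genes tested, and 16 did not pass, with the largest changes in *Fabp5* (2.29 ± 0.128), *Acsbg1* (-1.96 ± 0.473), an acyl-CoA synthetase, and *Acox2* (1.67 ± 0.209), a peroxisomal oxidase.

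Of 10 transcription factors and coactivators known to act on oxidation genes, 7 fell in FANKO BAT and 0 rose, beside 33.9% and 33.1% of all genes tested. *Ppara*, the nuclear receptor for fatty acids, changed by -2.21 ± 0.165, *Klf15* by -2.74 ± 0.182, the coactivator *Ppargc1b* by -2.07 ± 0.12 and the estrogen-related receptor *Esrrg* by -1.69 ± 0.161. *Esrra*, *Rxrg* and *Pparg* fell by less, at -0.69 ± 0.0771, -0.68 ± 0.0869 and -0.63 ± 0.0741. *Ppargc1a*, *Ppard* and *Rxra* did not pass, at -0.25 ± 0.142, -0.07 ± 0.0876 and 0.12 ± 0.0525. In eWAT *Esrra* (0.83 ± 0.0787), *Ppara* (0.64 ± 0.176), *Ppargc1b* (0.56 ± 0.127) and *Rxrg* (0.49 ± 0.0896) rose, and *Klf15* fell (-0.76 ± 0.157).

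**Figure D5:**
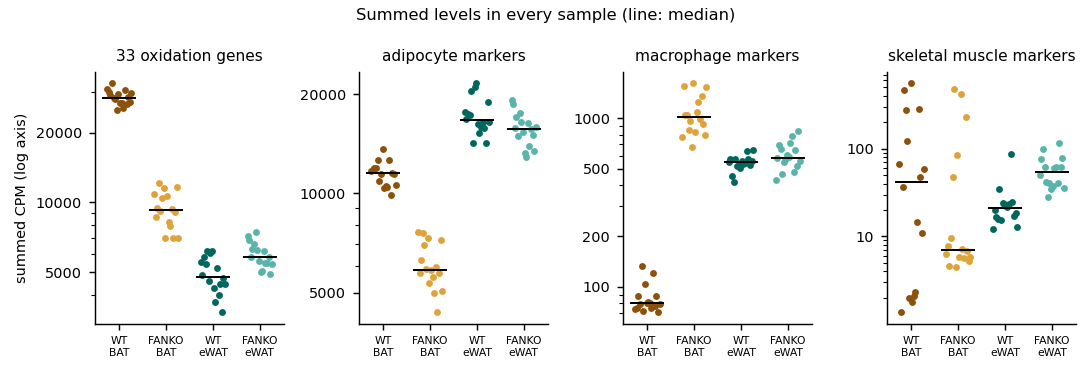
Summed CPM on a log axis of the 33 genes, of 6 adipocyte markers, of 7 macrophage markers and of 10 skeletal muscle markers in each of the 64 samples, by depot and genotype. In BAT the set has a median of 28268 CPM in WT and 9256 CPM in FANKO mice, the adipocyte markers 11506 and 5873, and the macrophage markers 79.8 and 1011, while the muscle markers vary widely within both genotypes.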

How the data were processed

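RNA from BAT and eWAT was sequenced as stranded, rRNA-depleted total RNA with 38-base paired reads, which the authors aligned with STAR 2.5.3a to GRCm38.p5 with GENCODE annotation. The authors deposited whole-number counts per gene from featureCounts 1.5.3, 1 column per sample, without normalization or pooling. Its strand and multi-mapping options are not given in the sources used here, so reads shared by overlapping or near-identical genes may be split, lost or counted more than once. Groups came from the sample labels.

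Counts were filtered with filterByExpr (minimum count 10, minimum total 15), scaled by TMM and fitted in R 4.3.3 with edgeR 4.0.16 by 1 quasi-likelihood model of 12 coefficients, a mean, a cosine and a sine (period 24 h) for each depot and genotype. Adjusted p-values are those of Benjamini and Hochberg over the 20249 genes tested, called at an FDR below 0.01. SE was taken from the F statistic, and time-point means used log2 CPM with a prior count of 2. The model was tested on simulated data. Symbols and exonic lengths (the union of all annotated exons of a gene) came from GENCODE on GRCm38, and promoters from RefSeq on GRCm38.p6. Alternatives used DESeq2 1.42.0, limma 3.58.1, other scalings, filters and fits. Figures used Python 3.11.15 with numpy 2.4.6, pandas 2.3.3 and matplotlib 3.10.9. limma and DESeq2 p-values were adjusted alike.

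All 33 genes are named. Values per sample were given for the gene with the largest called change in each role and depot, for the pairs *Cpt1a* and *Cpt1b*, *Acaa1a* and *Acaa1b*, *Acot1* and *Acot2*, *Hadha* and *Hadhb*, and, by time point, for the 3 smallest p of each rhythm test that passed. The members, the lists and the rule were chosen with earlier results of these data known. Labels do not say that replicates came from separate animals, so p-values measure the spread between these samples. Total counts per sample had a median of 15826651. The smallest chi-square per degree of freedom between 2 samples of a group was 6.17, so no library appeared under another name within its group. Samples of different groups were not compared in this way. Equal replicate numbers were not used as pairs in the main fit, and their correlations are given with the processing alternatives.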

Additional observations from a re-analysis of the deposited data

Results flagged for a closer look

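The genotype effect on mean level differed between BAT and eWAT for 31 genes by the interaction term of the edgeR fit. For activation the differences (BAT minus eWAT, log2) were -1.76 for *Acsl1*, -2.13 for *Acsl3* and -0.48 for *Acsl4*, and for the carnitine step 1.67 for *Cpt1a*, -4.05 for *Cpt1b*, -2.06 for *Cpt2* and -1.56 for *Crat*. The dehydrogenases *Acadvl*, *Acadl*, *Acadm* and *Acads* differed by -2.66, -2.50, -2.62 and -1.91. Those of hydration to thiolysis, *Hadha*, *Hadhb*, *Hadh*, *Echs1* and *Acaa2*, differed by -2.56, -2.94, -2.07, -2.19 and -2.80. The auxiliary genes *Eci1*, *Eci2*, *Decr1* and *Decr2* differed by -2.57, -1.78, -1.81 and -2.21, and the peroxisomal genes *Acox3*, *Ehhadh*, *Hsd17b4*, *Acaa1a* and *Scp2* by -0.65, -1.86, -1.30, -0.86 and -0.48. *Etfa*, *Etfb* and *Etfdh* differed by -2.27, -2.05 and -2.42, and *Acot1*, *Acot2* and *Fabp3* by -1.78, -2.27 and -4.09. In eWAT the rhythm of *Ehhadh* differed between genotypes (edgeR adjusted p = 0.00948).

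Among 52 groups of 4 samples examined for the genes shown by time point, 7 held a sample whose gap to the nearest other, as a share of the group's range, was above Dixon's 95% limit, which chance exceeds in about 1 group in 20. For *Acsl1* these were replicate 3 of WT BAT at ZT 10 (gap 0.878), low at 4450.2 CPM beside 4960 to 5031, replicate 4 of WT BAT at ZT 22 (0.961), high at 2576 beside 2036 to 2057, and replicate 4 of FANKO BAT at ZT 22 (0.919), high at 878 beside 732 to 743. For *Ehhadh* in eWAT, replicate 2 stood apart in 3 groups. It was low in WT at ZT 6 (0.874), at 40.9 CPM beside 55.5 to 57.6, high in FANKO at ZT 10 (0.980), at 110 beside 86.4 to 86.9, and low in FANKO at ZT 22 (0.881), at 25.7 beside 39.6 to 41.5. *Acot1* in replicate 4 of WT BAT at ZT 22 was high (0.857), at 4.84 CPM beside 1.61 to 2.08. What set these samples apart was not tested.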

How the results depend on the processing

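With libraries scaled by total counts alone, 5 genes rose in FANKO BAT in place of 2, 7 rose and 3 fell in FANKO eWAT in place of 20 and 1, 4 were lower in WT BAT than in WT eWAT in place of 1, the genotype effect was higher in BAT than in eWAT for 5 in place of 1, 3 were rhythmic in WT eWAT in place of 5 and 2 in FANKO eWAT in place of 4, and for 1 gene all FANKO BAT samples lay above all WT samples in place of 0. The medians of the set were -1.08 in BAT and 0.057 in eWAT. The rhythm difference of *Ehhadh* in eWAT was called in 0 genes with total counts alone, with TMM without the mitochondrial genome, with time point as a factor, with limma-voom and without the 9 libraries rich in muscle markers, and at an FDR of 0.05 the direct test called 1 gene in BAT and 2 in eWAT. limma-voom and separate fits of the depots called 1 rhythm difference in BAT, *Acot1*. Without the 9 libraries, 5 genes were lower in FANKO BAT than in FANKO eWAT in place of 9. Leaving out 1 replicate number at a time gave 13 to 20 genes higher in FANKO eWAT, 1 to 3 rhythmic in WT eWAT, 0 to 4 in FANKO eWAT and 0 to 1 rhythm differences in eWAT. Apart from these, and from the FDR where it was varied, counts stayed within 1.5 times. Of 132 daily ranges, 15 moved by more than 1 SD of the replicates when taken from the fitted cosine, among them *Acot1* in FANKO BAT from 1.30 to 2.44. The cause was not tested.

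Under total counts alone 22 single values changed sign. In FANKO against WT BAT they were *Acsl4* at 0.41, *Acox3* at 0.38 and *Scp2* at 0.041. In FANKO against WT eWAT they were *Acsl1* at -0.13, *Acsl3* at -0.086, *Cpt2* at -0.019, *Acadl* at -0.087, *Acads* at -0.10, *Hadh* at -0.10, *Echs1* at -0.10, *Eci2* at -0.049, *Hsd17b4* at -0.059 and *Etfa* at -0.078. In WT BAT against WT eWAT they were *Acsl4* at -0.42, *Acox3* at -0.051, *Hsd17b4* at -0.11, *Acaa1a* at -0.13 and *Scp2* at -0.22, and in the difference between depots *Acsl4* at 0.35, *Acox3* at 0.18, *Acaa1b* at 0.51 and *Scp2* at 0.33. The other 11 sign changes were in values that had not passed the test. With 1 replicate number left out, these were *Acaa1b* in BAT (-0.083 to 0.11), *Acsl1* (-0.093 to 0.23), *Ehhadh* (-0.077 to 0.069) and *Acot1* (-0.38 to 0.43) in eWAT, *Acaa1b* between WT depots (-0.060 to 0.0079) and *Acsl5* in the difference between depots (-0.038 to 0.12). *Ehhadh* in eWAT was at 0.0018 with the replicate block, and *Acot1* in eWAT at 0.23 with time as a factor and 0.47 with limma-voom.

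Samples of equal replicate number correlated at -0.133 to 0.306 between depots (median 0.0527) and at -0.131 to 0.225 between genotypes (median 0.0517). Between depots 10 of 32 pairs were above 0.1. Low correlations cannot show whether an equal number marks 1 animal or batch, so this was not settled. With the replicate block, 30 genes fell and 2 rose in BAT, 20 rose and 1 fell in eWAT, and the medians were -1.66 and 0.30. The block changed no count of calls. Counts limit *Cpt1b*, *Fabp3* and *Acot1* in eWAT, at medians of 6.0, 6.0 and 9.0 counts per WT sample.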
